A study of Homo sapiens with 9 samples.

Results

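Neural crest cells arise at the edge of the neural plate, leave it through an epithelial-to-mesenchymal transition and give rise to peripheral neurons, glia, melanocytes and facial cartilage. The genes described here code for 8 transcription factors that act in this process: the AP-2 factors TFAP2A, TFAP2B and TFAP2C, the Snail-family repressors SNAI1 and SNAI2, the basic helix-loop-helix factor TWIST1, the SoxE factor SOX9 and the forkhead factor FOXD3. They were chosen by symbol, with earlier results of these data known. Each was represented by its brightest transcript cluster, the group of array probes that is summarised as 1 value, by the mean of the 9 arrays. All 8 members had 1 cluster each among the 18417 genes with a cluster of their own. A gene was tested only if its highest value exceeded 7.7128, the median of all deposited values. This left 12254 genes, among them 7 of the 8 members, and removed TFAP2B.

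The arrays were hybridised with biotin-labelled cDNA from NCCIT, an established human embryonal carcinoma line, a tumour counterpart of early embryonic cells. One array came from undifferentiated NCCIT cells grown in serum-containing medium. The other 8 came from NCCIT embryoid bodies, aggregates formed in non-adherent dishes, at 7 or 21 days. At each of these days there was 1 array of embryoid bodies without addition, 1 with 50 mM ethanol, 1 with an additive labelled FA, and 1 with both ethanol and FA. The labels spell out neither FA nor its dose. The series' design text sets the day 7 ethanol comparison as its aim, and the treatment protocol describes only 7 days, with daily changes of medium, so the exposure behind the day 21 arrays rests on their titles.

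No condition was replicated, and nothing in the labels says that the arrays came from separate cultures. Each standard error (SE) below is therefore taken from the scatter of the embryoid body arrays around 1 additive model. The model has terms for ethanol, FA, day and the undifferentiated state. The undifferentiated array is fitted exactly by its own term, so its variation is not measured. In limma each gene's scatter is drawn towards a value shared by all genes. P-values measure only this scatter of the embryoid body arrays, which may be technical. Values are log2 expression levels, so a difference of 1 is a doubling. A gene was called changed at an adjusted p under 0.05 in limma after Benjamini-Hochberg adjustment over the 12254 genes. The filter uses a gene's highest array, so a gene can be tested only because it is high at 1 of the days. Day counts and medians of the gene lists below depend in part on this selection. Embryoid bodies hold mixed cells, so fewer cells of a type and less RNA per cell cannot be told apart. The array medians lay between 7.667 and 7.765, and the mean correlation of an array with its day 7 neighbours was 0.9903 for day 7 ethanol and 0.9937 to 0.9946 for the rest.

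AP-2 factors bind GC-rich sites as dimers and act early, at the neural plate border and in surface ectoderm; TFAP2A is also needed for craniofacial and melanocyte development. TFAP2C is in addition a gene of trophoblast, germ cells and naive pluripotent cells. Snail factors bind E-boxes and repress epithelial genes such as CDH1 (E-cadherin) as crest cells detach. TWIST1 acts in the same transition and in the mesenchyme that follows, SOX9 in early crest and later in cartilage, and FOXD3 in early crest as well as in pluripotent stem cells.

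TFAP2A had the widest range of the members across the arrays, and its sequence upstream of transcription is shown because the gene has more than 1 annotated start. Both windows hold the 250 bases before a start in RefSeq's GRCh38.p14 table, on the minus strand of chromosome 6. The first is chr6:10419660-10419909 and the second chr6:10412392-10412641. Capitals mark the letters TATAAA.
TFAP2A upstream window 1: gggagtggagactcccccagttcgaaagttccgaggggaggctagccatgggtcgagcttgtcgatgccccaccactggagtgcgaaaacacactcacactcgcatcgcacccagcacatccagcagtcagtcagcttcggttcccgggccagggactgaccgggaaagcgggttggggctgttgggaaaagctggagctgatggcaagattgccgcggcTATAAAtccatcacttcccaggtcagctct
TFAP2A upstream window 2: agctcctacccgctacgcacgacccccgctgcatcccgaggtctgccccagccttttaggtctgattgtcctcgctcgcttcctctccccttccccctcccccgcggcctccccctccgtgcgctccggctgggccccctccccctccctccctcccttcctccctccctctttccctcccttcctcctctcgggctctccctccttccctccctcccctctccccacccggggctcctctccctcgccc
In the first window TATAAA began 30 bases before the start, and the second held none. This motif was added after the windows had been read. Of 35116 such windows in the table, 10.7% held it. The GC content was 59.6% in the first window and 71.2% in the second, against a median of 58% over all windows. The deposited table gives 1 value for TFAP2A, so no separate level could be assigned to either start.

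The table had windows for 3 of the 8 members: TFAP2A, TFAP2B and FOXD3. Neither the E-box CAGGTG, which Snail factors can bind, nor the AP-2 motif GCCNNNGGC was found on either strand of these windows. Of all 35116 windows, 17.5% held the E-box and 19.8% the AP-2 motif. The absence of a match says only that these letters are not in these windows.

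TFAP2A and TFAP2C fell by day 21, and they were the members with the largest differences in the study. TFAP2A (cluster 8123864) read 11.23 in undifferentiated cells. At day 7 it read 11.32 without addition, 11.16 with ethanol, 11.42 with FA and 11.54 with both. At day 21 the same conditions gave 9.36, 9.35, 9.10 and 9.23. The day 7 arrays thus lay around the undifferentiated value, and all 4 day 21 arrays lay far below every other array. The day difference was -2.10 ± 0.10 (SE; 95% confidence interval -2.32 to -1.87), a 4.28-fold fall with an adjusted p of 1.65e-06. It was the 23rd largest fall among the 12254 genes.

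TFAP2C (cluster 8063536) also fell between day 7 and day 21, from a lower level. It read 9.96 in undifferentiated cells, then 9.60, 9.66, 9.58 and 9.77 at day 7 without addition, with ethanol, with FA and with both. At day 21 it read 7.91, 8.16, 7.74 and 7.93. All day 7 arrays lay slightly below the undifferentiated array, and the day 21 arrays did not overlap them. The day difference was -1.72 ± 0.07 (SE; -1.87 to -1.57), a 3.29-fold fall with an adjusted p of 6.83e-07 and the 43rd largest. The third AP-2 member, TFAP2B (cluster 8120194), read between 6.54 and 6.96 on all 9 arrays, with exactly the same value on 4 of them, and was not tested.

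SNAI1, which codes for the Snail factor best known for starting epithelial-to-mesenchymal transitions, also fell with day. SNAI1 (cluster 8063382) read 8.05 in undifferentiated cells. It read 8.20, 7.74, 8.17 and 7.72 at day 7 without addition, with ethanol, with FA and with both, and 7.27, 7.37, 7.39 and 7.44 at day 21. Both day 7 arrays with ethanol lay below both without it, and every day 21 array lay below every day 7 array. The day difference was -0.59 ± 0.11 (SE), a 1.5-fold fall with an adjusted p of 0.00236.

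SOX9 was the only tested member that rose with day. SOX9 (cluster 8009517) read 8.65 in undifferentiated cells and 8.62, 8.69, 8.69 and 8.58 at day 7 in the order above. At day 21 it read 8.90, 8.97, 8.93 and 8.94, above all other arrays by a small margin. The difference of 0.29 ± 0.05 (SE) had an adjusted p of 0.0021 and amounts to 1.22-fold.

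FOXD3 and TWIST1 moved little. FOXD3 (cluster 7901913) read 7.72 in undifferentiated cells, 7.56, 7.72, 7.47 and 7.61 at day 7, and 7.26, 7.28, 7.47 and 7.47 at day 21. It passed the filter by less than 0.01, and the day 7 FA, day 21 FA and day 21 ethanol plus FA arrays hold exactly the same deposited value, as 3 or more arrays do for 7.7% of the genes tested. Its day difference of -0.22 ± 0.07 (SE) had an adjusted p of 0.0373; it passed the threshold under 7 of 16 other settings, and was lost with arrays centred on their median, with trend and robust eBayes, with the 4 matched day pairs as a block (adjusted p 0.0564), with an ethanol by day term, which makes the day difference that of the arrays without ethanol, and without the day 7, day 7 ethanol, day 21, day 21 ethanol or day 21 ethanol plus FA array. TWIST1 (cluster 8138442) read 7.91 in undifferentiated cells, 7.98, 8.04, 8.03 and 8.0 at day 7, and 7.75, 7.84, 7.98 and 7.94 at day 21. Its difference of -0.14 ± 0.06 (SE) had an adjusted p of 0.0754 and passed only without the day 7 array with ethanol plus FA (adjusted p 0.035).

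SNAI2 showed no day difference that could be detected. Its values, given with the ethanol comparison, overlapped between days, and the difference was 0.01 ± 0.08 (SE; -0.18 to 0.21; adjusted p 0.907). In all, 4 of the 7 tested members fell and 1 rose between day 7 and day 21. Over all 12254 genes 22.6% fell and 26.3% rose, so a day call was common; with arrays centred on their median, 17.2% fell and 31.6% rose. The median day difference of all genes was -0.01, and 0.04 after centring. The day 21 arrays all lay below the day 7 arrays for TFAP2A, TFAP2C, SNAI1 and, by less than 0.01, TWIST1, as for 21.4% of all genes; they all lay above for SOX9, as for 24.6%.

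**Figure D1:**
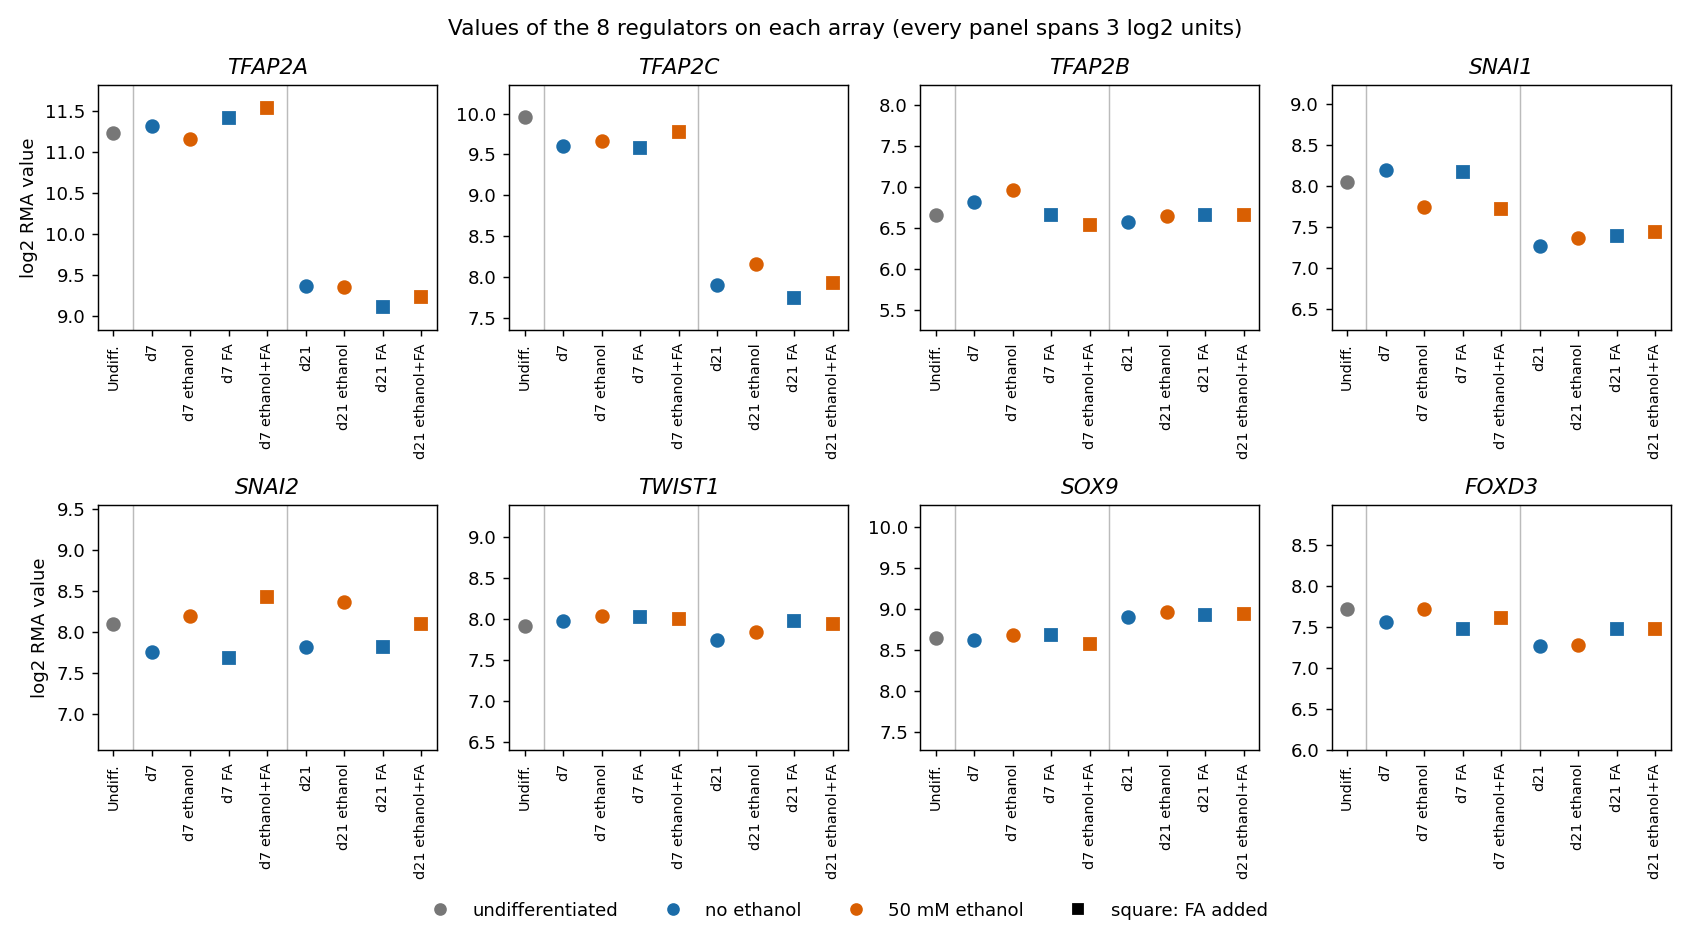
Log2 RMA value (y axis) of each of the 8 regulators on each of the 9 arrays (x axis); every panel spans 3 log2 units, colour gives ethanol and squares mark FA. TFAP2A and TFAP2C stand about 2 units lower on the 4 day 21 arrays, and SNAI2 is higher on each ethanol array (8.09 to 8.42) than on the embryoid body arrays without ethanol (7.68 to 7.81).

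Against the undifferentiated array, untreated embryoid bodies had less of both AP-2 transcripts when the fitted level was averaged over both days. The difference was -1.21 ± 0.11 (SE; adjusted p 0.00069) for TFAP2C and -0.94 ± 0.16 (SE; adjusted p 0.00487) for TFAP2A. The single pairs show how the days contributed. TFAP2A was 0.09 above the undifferentiated value at day 7 and differed by -1.88 at day 21. For TFAP2C the same pairs gave -0.35 and -2.04. None of the other 5 tested members passed: FOXD3 gave -0.30 ± 0.12 (SE; adjusted p 0.0993), SNAI2 -0.32 ± 0.14 (SE; adjusted p 0.124), SNAI1 -0.31 ± 0.17 (SE; adjusted p 0.233), SOX9 0.14 ± 0.08 (SE; adjusted p 0.26) and TWIST1 -0.01 ± 0.09 (SE; adjusted p 0.942). Under 1 other setting each, FOXD3 and SNAI1 passed: FOXD3 without the day 7 ethanol array (adjusted p 0.0331) and SNAI1 with an ethanol by day term (adjusted p 0.033). Among all genes 17.2% were lower and 11% higher than in undifferentiated cells, or 21.2% and 8.88% with centred arrays. This comparison rests on 1 undifferentiated array, whose own variation was not measured.

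SNAI2 rose with ethanol, and it was the only member called in that comparison. SNAI2, also known as SLUG, codes for the Snail repressor most used as a marker of premigratory and migrating crest. SNAI2 (cluster 8150698) read 8.09 in undifferentiated cells. Without ethanol the embryoid bodies read 7.75 at day 7, 7.68 at day 7 with FA, 7.81 at day 21 and 7.81 at day 21 with FA. With ethanol the same conditions read 8.19, 8.42, 8.37 and 8.09. The 4 ethanol arrays lay above the 4 others, as for 2.59% of all genes, and the undifferentiated array read the same as the lowest ethanol array.

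The matched differences for SNAI2 were 0.44 at day 7, 0.74 at day 7 with FA, 0.56 at day 21 and 0.28 at day 21 with FA. Their mean was 0.51 ± 0.08 (SE; 95% confidence interval 0.31 to 0.70), or 1.42-fold, with an adjusted p of 0.0475. By size it was the 40th largest rise. Ethanol raised 0.563% of the 12254 genes and lowered 0.122%, 69 and 15 genes.

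The call for SNAI2 sits close to the threshold, while the size was between 0.42 and 0.59 under all 16 other settings that tested the gene. Its adjusted p passed under 7 of them, among them the fit with the 4 matched ethanol pairs as a block (adjusted p 0.041). The 7 include settings that could hardly differ from the main fit. Leaving out the undifferentiated array, which has its own term, gave the same adjusted p of 0.0475. Averaging clusters left this gene with 1 cluster unchanged (0.0474). Without the day 7 ethanol array, which stood apart, the difference was 0.55 with an adjusted p of 0.0333. The call was lost without the day 7 (adjusted p 0.204), day 7 FA (0.222), day 21 (0.152), day 21 FA (0.118), day 21 ethanol (0.123) or day 21 ethanol plus FA array (0.0746), with centred arrays (0.0699), with no filter on dim genes (0.0619), and with no terms for the other factors (0.777). The stricter filter removed the gene. The count over all genes moved with single arrays as well: it was 0 without the day 7, day 7 FA, day 21 ethanol or day 21 ethanol plus FA array, 2 higher and 0 lower without day 21, and 2 and 1 without day 21 FA. It was 160 higher and 52 lower without the day 7 ethanol array, and 76 and 53 without day 7 ethanol plus FA.

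**Figure D2:**
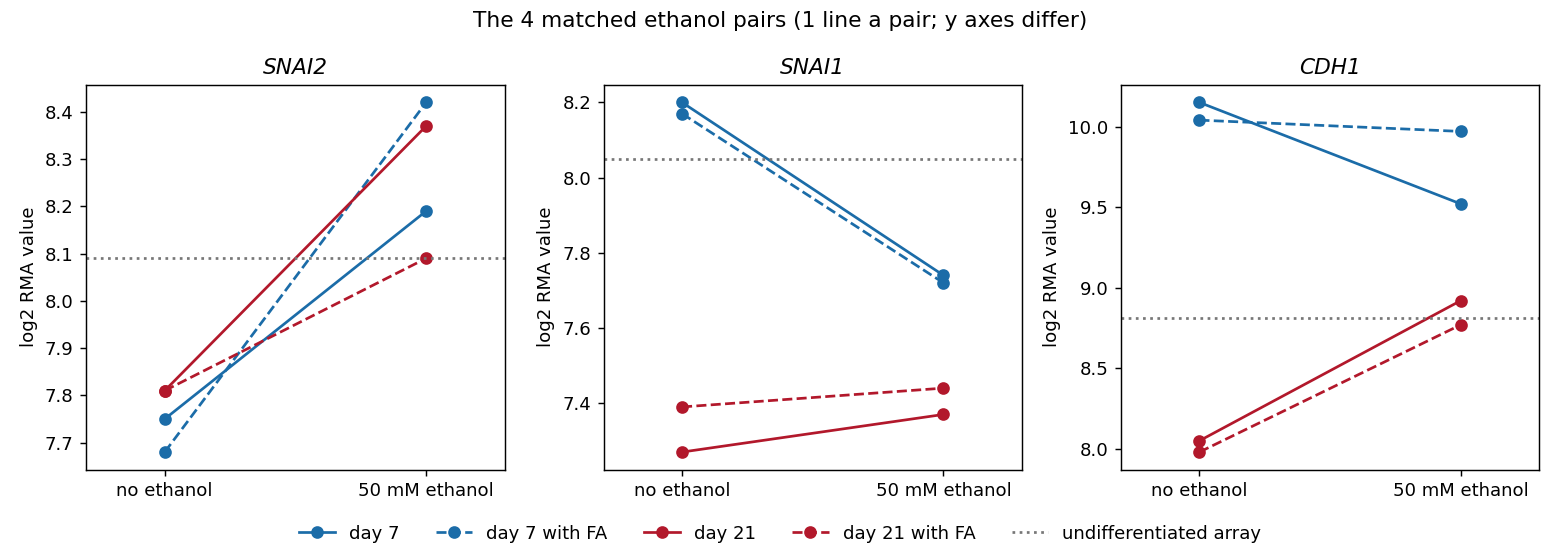
Log2 RMA values (y axis) of SNAI2, SNAI1 and CDH1 in the 4 matched pairs of embryoid body arrays without and with 50 mM ethanol (x axis), 1 line a pair, with the undifferentiated array as a dotted line; y axes differ. All 4 SNAI2 lines rise, by 0.28 to 0.74, whereas SNAI1 falls by 0.45 in both day 7 pairs and CDH1 rises only in the day 21 pairs.

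SNAI1 did not pass for ethanol. Its matched differences were -0.45 at day 7 with and without FA, 0.10 at day 21 and 0.05 at day 21 with FA, with a mean of -0.19 ± 0.11 (SE; adjusted p 0.4). The difference between days, an ethanol by day interaction of 0.53 ± 0.10 (SE), had an unadjusted p of 0.00132 and an adjusted p of 0.221, so it did not pass; 0.00816% of genes, 1 gene, did. Whether SNAI1 and SNAI2 differ in their ethanol response was not tested. TFAP2C averaged 0.17 ± 0.07 (SE; 0.02 to 0.32; adjusted p 0.243). The remaining 4 tested members had means between 0.01 and 0.08, with 95% intervals of -0.21 to 0.24 for TFAP2A, -0.11 to 0.13 for SOX9, -0.09 to 0.25 for FOXD3 and -0.11 to 0.15 for TWIST1.

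No member passed for FA. The mean FA differences ran from -0.08 (TFAP2C) to 0.08 (TWIST1), all with an adjusted p of 1, and the 95% intervals allowed -0.22 to 0.16 for SNAI2 and -0.20 to 0.25 for TFAP2A. Over all 12254 genes 0% passed in limma, with 121 (0.987%) at an unadjusted p under 0.05, against 12.2% for FA by day. The additive model counts an FA difference that changes with day as scatter. The lack of calls therefore does not show that FA had no effect. No member passed for ethanol by FA, where SNAI2 gave 0.01 ± 0.18 (SE; adjusted p 0.997), or for FA by day. In the latter TFAP2A gave -0.42 ± 0.13 (SE), TFAP2C -0.24 ± 0.10 (SE) and FOXD3 0.30 ± 0.10 (SE), each with an adjusted p of 0.403. Among all genes 0% passed either interaction in limma, with 100 genes for ethanol by FA and 1496 for FA by day at an unadjusted p under 0.05.

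**Figure D3:**
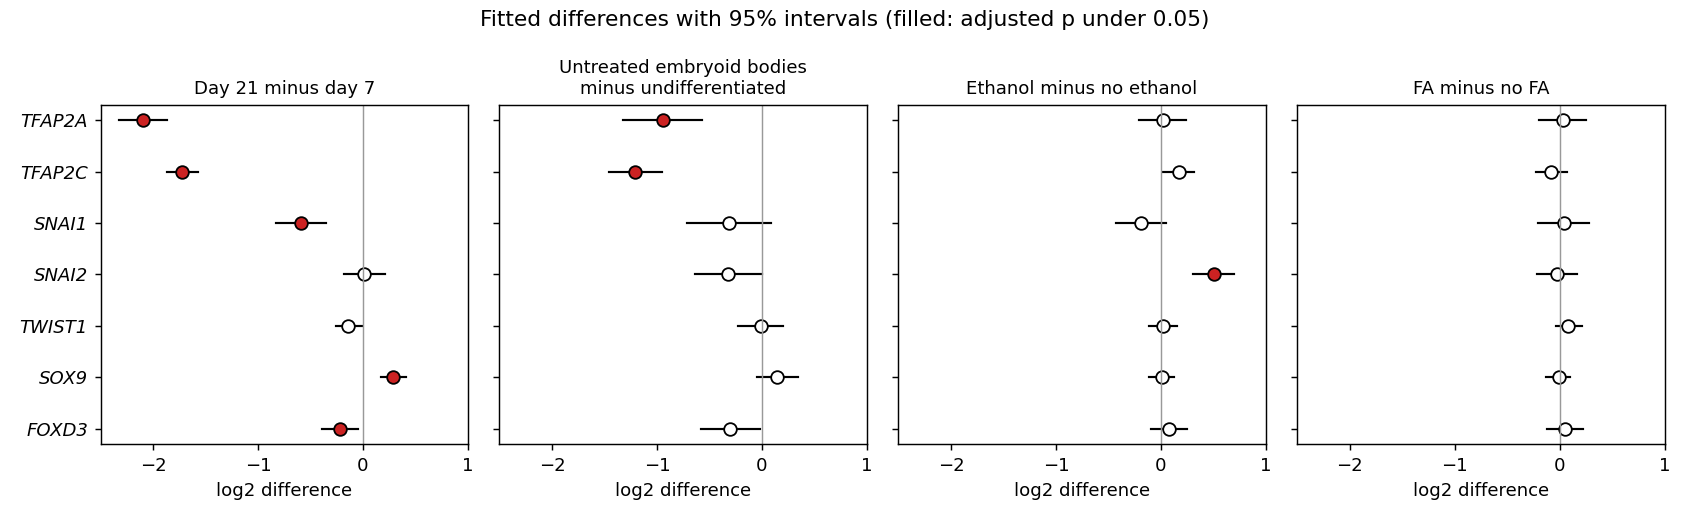
Fitted log2 differences (x axis) with 95% confidence intervals for the 7 tested regulators (y axis) in 4 comparisons; filled points have an adjusted p under 0.05. The day panel holds the widest differences (TFAP2A at -2.10 and TFAP2C at -1.72), the ethanol panel has 1 filled point (SNAI2 at 0.51), and the FA panel has none.

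Other members of the same gene families were read alongside. Beside the day counts of this and every later list, 26.3% of all 12254 genes rose and 22.6% fell. Of 5 tested paralogs, 3 fell with day and none rose: FOXD1 at -0.61 ± 0.08 (SE; adjusted p 0.000533), TWIST2 at -0.27 ± 0.09 (SE; adjusted p 0.0411) and the AP-2 gene TFAP2E at -0.25 ± 0.08 (SE; adjusted p 0.0407). TWIST2 and TFAP2E lost their call under 10 and 9 other settings. SNAI3 gave -0.16 ± 0.09 (SE; adjusted p 0.158). SOX10, the SoxE gene that marks migrating crest and its glia, read 7.46 to 7.62 on all arrays and was below the filter, as were TFAP2D (5.22 to 5.82) and FOXD2 (6.94 to 7.47).

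The neural plate border genes act with AP-2 factors where crest is induced. Of 10 tested, 3 rose and 1 fell with day, with a median of 0.07 against -0.01 for all genes; the share that rose was near, and the share that fell below, the 26.3% and 22.6% of all genes. PRDM1, a repressor used at the border and in germ cells, rose by 2.44 ± 0.11 (SE), ZIC1 by 1.07 ± 0.08 (SE) and DLX5 by 0.62 ± 0.10 (SE), while ZIC2 fell by 0.22 ± 0.05 (SE). The paired-box genes PAX3 (6.48 to 7.68) and PAX7 (7.12 to 7.48) were below the filter on every array.

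Among 12 other crest specifiers 6 rose and 3 fell (median 0.27), against 26.3% and 22.6% of all genes. The nuclear receptor gene NR2F1 rose by 3.44 ± 0.07 (SE) and SOX5 by 1.59 ± 0.07 (SE), and the ID-family gene ID3 by 0.56 ± 0.17 (SE). The ID3 call was lost without the day 7 ethanol, day 21 ethanol or day 21 ethanol plus FA array, and with an ethanol by day term, where the day difference without ethanol was 0.17 (adjusted p 0.425). MYC, a proto-oncogene also used in crest progenitors, fell by 1.14 ± 0.06 (SE). Of 15 genes for crest-inducing signals, 3 rose and 6 fell (median -0.10). The ligand gene WNT8A fell by 1.04 ± 0.06 (SE) and FST, which codes for the activin and BMP antagonist follistatin, fell by 0.90 ± 0.09 (SE). The Notch ligand gene DLL1 rose by 0.78 ± 0.10 (SE) and BMP7 by 0.59 ± 0.07 (SE).

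Of 18 tested genes whose products act on AP-2 or Snail proteins, 10 rose and 1 fell (median 0.20), against 26.3% and 22.6% of all genes. They included FBXO11 and BTRC, parts of ubiquitin ligases that target Snail for degradation, at 0.82 ± 0.08 (SE) and 0.30 ± 0.08 (SE); the BTRC call was lost without the day 7, day 7 FA or day 21 array. FBXL14, also on this list, gave -0.00 ± 0.07 (SE) with an adjusted p of 0.984. The AP-2 co-activator gene CITED2 rose by 0.41 ± 0.08 (SE), a call lost with an ethanol by day term (adjusted p 0.0636), and the Polycomb methyltransferase gene EZH2 by 0.33 ± 0.05 (SE).

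Some genes on either side of the transition that Snail and Twist factors act in also moved with day. Of 10 epithelial adhesion genes 4 fell and 1 rose (median -0.30), against 22.6% and 26.3% of all genes. CDH1 fell by 1.49 ± 0.23 (SE; adjusted p 0.00114), the claudin gene CLDN6 by 1.49 ± 0.08 (SE) and the P-cadherin gene CDH3 by 0.75 ± 0.11 (SE), while TJP1, a tight junction scaffold gene, rose by 0.55 ± 0.07 (SE). Epithelial genes not called included EPCAM at -0.04 ± 0.11 (SE) with an adjusted p of 0.753, and CLDN7 at -0.27 ± 0.18 (SE) with 0.233. Of 14 mesenchymal transition genes 8 rose and 2 fell (median 0.37). The repressor gene ZEB1 rose by 1.48 ± 0.09 (SE), and the cadherin genes CDH6, CDH2 and CDH11 by 0.75 ± 0.06 (SE), 0.72 ± 0.05 (SE) and 0.62 ± 0.08 (SE). The 2 that fell were VIM at -0.38 ± 0.11 (SE; adjusted p 0.0188) and ITGA5 at -0.26 ± 0.07 (SE; adjusted p 0.0143). FN1 gave -0.03 ± 0.17 (SE; adjusted p 0.883). SNAI1 fell and SNAI2 showed no detectable day difference over the same arrays.

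Of the cartilage markers 4 of 10 were bright enough to test, and of the glia and melanocyte markers with a cluster 7 of 10. Of 4 tested cartilage genes 1 fell, COL9A2 by 0.16 ± 0.06 (SE; adjusted p 0.0417), a call kept under 5 of 16 other settings, and COL2A1, a direct SOX9 target that codes for type II collagen, gave 0.08 ± 0.06 (SE; adjusted p 0.301). COL11A2 and MATN4 gave -0.20 and -0.19, and the other 6, with ACAN at 6.90 to 7.32, were below the filter. Of 7 tested markers of glia and melanocytes 3 rose and 3 fell (median -0.11). The endothelin receptor gene EDNRB rose by 3.39 ± 0.15 (SE) and the receptor gene KIT by 0.85 ± 0.13 (SE), while FABP7 fell by 0.70 ± 0.11 (SE) and the melanosome gene PMEL by 0.46 ± 0.10 (SE). S100B (5.80 to 6.10) and the pigment enzyme gene TYR (4.99 to 5.46) were below the filter. Of 8 markers of sympathetic and enteric neurons only 3 were tested. GATA3 rose by 0.67 ± 0.06 (SE). STMN2 fell by 0.62 ± 0.12 (SE), with a difference of -0.38 (adjusted p 0.0582) without ethanol in the fit with an ethanol by day term. TH, which codes for tyrosine hydroxylase, gave -0.19 ± 0.08 (SE; adjusted p 0.0717).

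The same regulators also serve other cell types, whose markers were read for that reason in the same NCCIT arrays. Of 4 tested markers of placode and epidermis 1 rose, SIX4 by 0.36 ± 0.08 (SE), and EYA1, PITX1 and KRT14 gave 0.24, 0.04 and -0.03. KRT14's sign turned with centred arrays. Of 6 tested markers of trophoblast and amnion, where TFAP2A and TFAP2C act too, 1 rose and 2 fell. KRT8 gave 0.41 ± 0.05 (SE), HAND1 -0.82 ± 0.05 (SE), TEAD4 -0.27 ± 0.06 (SE) and WNT6 -0.10. The 6 others, including CGA and GCM1, were below the filter. Of 4 tested markers of germ cells, which use TFAP2C, 1 rose (PRDM1) and 1 fell, DPPA3 at -1.76 ± 0.28 (SE), with SOX17 and NANOS3 at -0.15 and -0.13.

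Of 5 tested markers of mesenchyme 3 rose and 1 fell (median 0.47). PDGFRA, the platelet-derived growth factor receptor alpha gene, rose by 2.67 ± 0.09 (SE), POSTN by 1.13 ± 0.13 (SE) and COL3A1 by 0.47 ± 0.07 (SE), against THY1 at -1.21 ± 0.14 (SE). POSTN read at most 6.64 at day 7. It passed the filter only through the day 21 arrays without addition (7.79) and with ethanol (7.81). PDGFRA, KIT, GATA3, DLX5, ZIC1, PRDM1, CDH11 and PAX6 also passed only through day 21 arrays. For SNAI1, PMEL and WNT8A all day 21 values were below the filter. LUM (3.92 to 5.49) and DCN (4.68 to 4.82) were below the filter. Among 12 neural progenitor genes 4 rose and 3 fell (median 0.12), with the eye and forebrain regulator gene PAX6 at 4.32 ± 0.11 (SE), OTX2 at -1.26 ± 0.18 (SE) and SOX2 at -0.73 ± 0.07 (SE). Among 10 genes of pluripotent and embryonal carcinoma cells 9 fell and 1 rose (median -0.85), with L1TD1, CRIPTO, DNMT3B and DPPA4 at -2.5 ± 0.11, -2.27 ± 0.15, -2.14 ± 0.10 and -1.24 ± 0.08 (SE). TFAP2A and TFAP2C fell over the same arrays; what part the changing cell mix has in the members' differences was not tested.

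**Figure D4:**
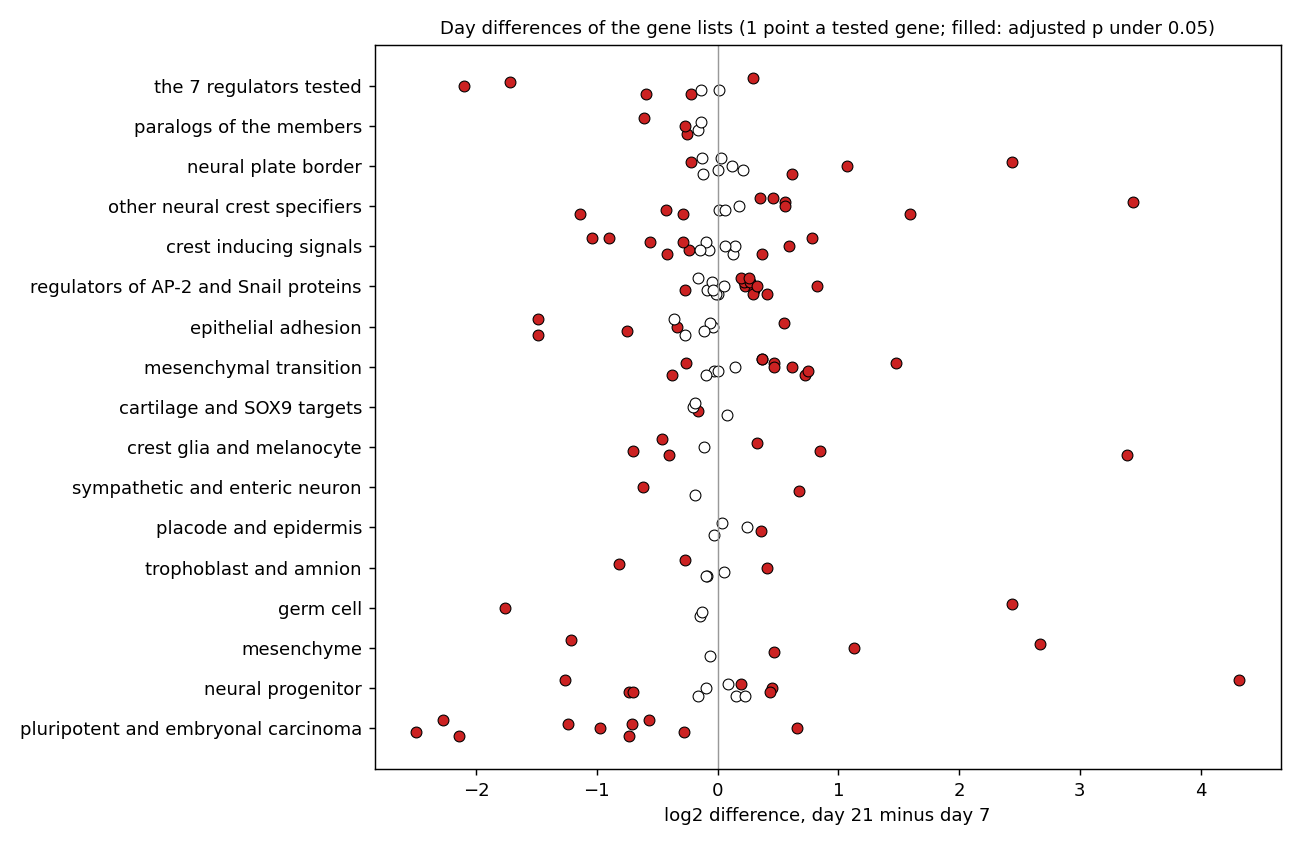
Log2 difference between day 21 and day 7 (x axis) of every tested gene of the 7 regulators and 16 gene lists (y axis); filled points have an adjusted p under 0.05. The pluripotent and embryonal carcinoma genes lie mostly left of 0 (median -0.85), TFAP2A and TFAP2C lie in the same range, and single genes such as PAX6 (4.32), NR2F1 (3.44) and EDNRB (3.39) lie far to the right.

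No gene of these lists passed for ethanol or FA in limma. The matched ethanol differences of the epithelial adhesion genes, given here as a description chosen after their values were seen, differed by day. CDH1 read 8.81 in undifferentiated cells and 10.15, 9.52, 10.04 and 9.97 at day 7 without addition, with ethanol, with FA and with both. At day 21 it read 8.05, 8.92, 7.98 and 8.77. Its ethanol differences were thus -0.63 and -0.07 at day 7 and 0.87 and 0.79 at day 21, the second of each pair with FA, and the interaction of 1.18 ± 0.21 (SE) had an unadjusted p of 0.00108 and an adjusted p of 0.221. EPCAM, an epithelial adhesion molecule gene, gave 0.24, 0.53, 0.83 and 0.91 in the same order, with a mean of 0.63 ± 0.11 (SE; adjusted p 0.0529).

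Over the 10 epithelial genes the median ethanol difference was -0.03 at day 7, 0.08 at day 7 with FA, 0.46 at day 21 and 0.54 at day 21 with FA, and 4, 7, 9 and 10 genes lay above 0. Over all 12254 genes the medians were 0.01 to 0.02, and 6452, 6849, 7070 and 6443 genes lay above 0 in the same order. The 14 mesenchymal transition genes had medians of 0.07, -0.03, 0.03 and -0.00, and the 5 mesenchyme genes 0.10, -0.11, 0.04 and 0.13. Higher day 21 medians were not limited to epithelial genes: the 4 germ cell genes had 0.18, 0.02, 0.46 and 0.42, and the 10 pluripotent and embryonal carcinoma genes -0.09, -0.03, 0.21 and 0.18. SNAI2 was higher with ethanol in the same 4 pairs.

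**Figure D5:**
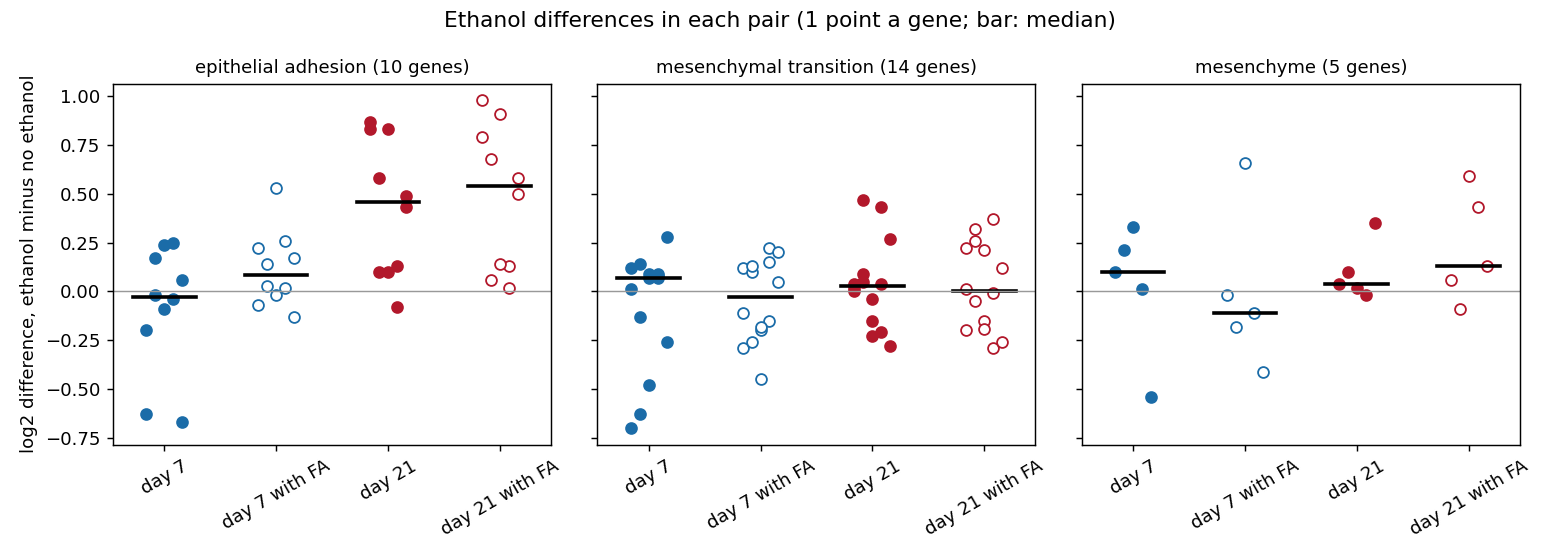
Log2 difference between matched arrays with and without ethanol (y axis) for each tested gene of 3 lists in each of the 4 pairs (x axis); bars are medians. The epithelial adhesion medians are 0.46 and 0.54 at day 21 and near 0 at day 7, while the medians of the other lists drawn lie between -0.11 and 0.13.

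The genes whose values over the 9 arrays ran most like each member were found by Pearson correlation, given as a description: the arrays fall into groups by day and share 1 normalization, and the genes were picked from all 12254. For SNAI2 they were POLR2H (0.9259), which codes for an RNA polymerase subunit, the amino acid transporter gene SLC16A10 (0.9199) and TMEM184C (0.9120). For TFAP2A they were TBC1D23 (0.9981), DPYSL3 (0.9975) and CPXM2 (0.9970), and for TFAP2C ZNF483 (0.9995), the telomere protein gene TERF1 (0.9984) and ENPP1 (0.9976). SNAI1 ran with KIF17 (0.9841), DDB2 (0.9840) and SNORA71C (0.9833), and SOX9 with the growth factor gene TGFB2 (0.9963), ZNF618 (0.9925) and SH3RF2 (0.9906). FOXD3 ran with RNF126P1 (0.9868), SFN (0.9782) and KCP (0.9663), and TWIST1 with CRACR2B (0.9597), RABEP2 (0.9583) and RSPO4 (0.9576). The values for SNAI2 were the lowest of the members' nearest patterns, and those for the AP-2 genes were among the highest.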

How the data were processed

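Gene expression was measured on 9 Affymetrix whole-transcript arrays of NCCIT cells, 1 array per condition, grouped by their titles. The authors deposited log2 values made with RMA; the submitters' processing notes name Expression Console 1.3.1 from Affymetrix, and the log base was inferred from the value range of 2.489 to 14.306. The genome build behind the clusters was not given in the sources used here. RMA forces the arrays to nearly 1 distribution, which can hide a shift shared by most genes, and precision is limited by having 9 arrays.

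Of 33297 clusters, 19460 had 1 symbol in GEO's platform annotation, 1754 had several and 12083 none; those with 1 symbol were used, with the brightest cluster for the 769 genes with several. Symbols were checked through 19429 Entrez IDs in RefSeq, and 0 changed. limma 3.58.1 in R 4.3.3 fitted ethanol, FA, day and the undifferentiated array additively (4 residual degrees of freedom), with interactions 1 at a time (3 residual degrees of freedom). The differentiation contrast is the fitted untreated embryoid body level over both days minus the undifferentiated array. The day term was tested on simulated data with independent noise on each array. The ethanol, FA, differentiation and interaction terms were not tested in this way. The members and lists were chosen with earlier results of these data known.

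Named genes are the 8 members, up to 4 genes per list with the largest day difference (or any past the threshold for ethanol or FA), and the 3 nearest patterns per tested member. SOX10, PAX3, PAX7, EPCAM, CLDN7, FBXL14, VIM, ITGA5, FN1 and the untested genes given by range were named after their values were seen. Listed genes without a cluster of their own, such as NR2F2 and RET, were not analysed here. Alternatives were centred arrays, filters, averaged clusters, trend and robust eBayes, an added interaction, no other terms, leaving out each array and, added after the data were seen, the matched pairs as a block. Leaving out the undifferentiated array cannot change a day, ethanol or FA result, because that array has its own term.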

Additional observations from a re-analysis of the deposited data

How the results depend on the processing

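The day calls of TFAP2A, TFAP2C, SNAI1 and SOX9 held under every alternative that tested them, and the differentiation calls of TFAP2A and TFAP2C did too. The number of members called by day was 5, and 2 with the stricter filter (values above 9.2243), which left only TFAP2A and TFAP2C to test; leaving out 1 array gave 4 to 6. The number called by ethanol was 1, and 0 with centred arrays, with no filter on dim genes, with the stricter filter and with no terms for the other factors; leaving out 1 array gave 0 to 1. The number called for FA was 0 under every alternative, and the number called for an interaction was 0 under the 3 alternatives run for it (no filter, averaged clusters, trend and robust eBayes). Alternatives were run only for the list genes named by the size of their day difference, so not for genes such as EPCAM, CLDN7, FBXL14, VIM, ITGA5 or FN1. Of the 50 called by day, 43 kept their call under all alternatives. TFAP2E, TWIST2, ID3, CITED2, BTRC, COL9A2 and STMN2 lost it under some. Uncalled differences near 0 changed sign when 1 array was left out. Their ranges were -0.03 to 0.10 (SNAI2, day), -0.03 to 0.04 (TWIST1, differentiation), -0.06 to 0.12 (TFAP2A, ethanol), -0.01 to 0.04 (SOX9, ethanol) and -0.02 to 0.05 (TWIST1, ethanol). For FA they were -0.05 to 0.12 (SNAI1), -0.11 to 0.05 (SNAI2), -0.07 to 0.11 (TFAP2A), -0.04 to 0.02 (SOX9) and -0.01 to 0.10 (FOXD3). KRT14 by day ranged from -0.16 to 0.09 and was 0.02 with centred arrays. The cause was not tested. With the 4 matched pairs as a block, a fit chosen after seeing the data, the number called was 4 by day, 1 by ethanol and 0 by FA. Signal over background could not be read from the deposited values, so no member has a detection call. This matters most for dim values, and these were not limited to TFAP2B and FOXD3. In embryoid bodies without ethanol SNAI2 read 7.68 to 7.81, around the median of all deposited values that set the main filter. SNAI1 read 7.27 to 7.44 at day 21, below that median. The SNAI2 ethanol call and the SNAI1 day call thus each rest in part on values near or below that median.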

Other observations

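Some genes that share cell types with TFAP2C had larger ethanol differences at day 21 than at day 7, though none of their interactions passed. DPPA3, a germ cell and naive pluripotency gene, was higher with ethanol by 1.5 at day 21 and 1.49 at day 21 with FA, against 0.05 and -0.07 at day 7; the ethanol by day interaction was 1.51 ± 0.17 (SE), with an unadjusted p of 7.50e-05 and an adjusted p of 0.151 in limma. PRDM1 was higher by 0.77 and 0.80 at day 21 and by 0.20 and 0.17 at day 7, an interaction of 0.60 ± 0.09 (SE; adjusted p 0.186). The other tested germ cell genes, SOX17 and NANOS3, had interactions of the other sign, at -0.10 ± 0.17 (SE) and -0.04 ± 0.16 (SE). The epithelial gene CLDN7 gave 0.83 and 0.98 at day 21 and -0.20 and 0.22 at day 7 (adjusted p 0.221 for the interaction). On the epithelial list TJP1 and CRB3 had negative interactions, at -0.29 ± 0.10 (SE) and -0.02 ± 0.15 (SE), and the rest were positive. None of these interactions passed, and the genes were named after their values were seen.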
